A study of Rattus norvegicus with 25 samples.

Results

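The genes described here encode the heat shock proteins and molecular chaperones of the rat. They are the 79 of 16881 gene symbols in the count data that belong to the named families HSP90 (3 genes), HSP70 (11), HSP110 (3), the small heat shock proteins (8), HSP60 with its partner HSP10 (2), the cytosolic chaperonin CCT (9) and the J domain families DNAJA (4), DNAJB (13) and DNAJC (26). They were picked by the start of their symbol and a number, without regard to their level, and Hspbp1 and Hspbap1, which share the letters but are no heat shock proteins, were left out. By textbook location 50 of them were placed in the cytosol, 12 in the endoplasmic reticulum (ER), 8 in the mitochondrion and 3 in the nucleus, and 6 were given no location. Counts were high enough to test 69 of the 79. The 10 others were Cct6b, Cct8l1, Dnajb7, Dnajb8, Dnajc16, Dnajc5b, Dnajc5g, Hspa1l, Hspb2 and Hspb9.

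The samples were teeth with periodontal ligament from Sprague–Dawley rats, in which a molar of the upper jaw was taken out, kept dry and put back. In immediate replantation (IR) the tooth was dry for 5 min, in delayed replantation (DR) for 60 min, and the tissue was taken 3 or 7 days later. The 4 replanted groups (IR day 3, IR day 7, DR day 3, DR day 7) had 6 libraries each, and a control group named NT had 1. The labels give postnatal day 21 as the age of every sample, name no sex, genotype or agent, and do not say whether the libraries of a group came from separate animals, so p-values measure the spread between libraries. RNA was read by a 3′ tag method, in which 1 count stands for 1 transcript end, so counts do not grow with transcript length. The libraries held 5043739 to 8811662 counts, and in bulk tissue fewer cells of a type and less RNA per cell cannot be told apart.

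Chaperones bind unfolded or partly folded proteins and release them in cycles of ATP hydrolysis. HSP70 proteins receive their clients from J domain proteins, which also switch on their ATPase, and nucleotide exchange factors such as the HSP110 proteins reset them. HSP90 finishes the folding of kinases and hormone receptors, the chaperonins enclose a folding chain in a chamber, and small heat shock proteins hold clients without ATP. Each compartment has its own set, and heat shock factors switch on the cytosolic and mitochondrial sets while the unfolded protein response switches on the ER set, which secretory cells such as collagen-making fibroblasts and bone-forming cells use heavily.

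Several day 3 libraries differed from the others in their tissue markers, and some of the members differed there too. Counts of 7 lipid-secreting gland genes (of 8 listed) made up 1.61% to 2.25% of all counts in DR day 3 replicates 1, 2 and 3 and 2.67% in IR day 3 replicate 6, against at most 0.549% in any other library. Awat1 and Awat2 were at 0 in these groups and in NT. Counts of 9 nasal gland genes (of 10 listed) made up 23.7% and 28.8% in IR day 3 replicates 3 and 4, against at most 9.36% elsewhere. In these 6 libraries the periodontal ligament list (Postn, Aspn, Scx and Tnmd) stood at 0.000932% to 0.0086% of counts, against 0.025% or more in every other library and 0.291% in NT, and the osteoblast list was as low as 0.0394%. Over all libraries the 7 osteoblast genes took 0.0394% to 4.53% at day 3, 4.04% to 9.3% at day 7 and 14.4% in NT, so tissue makeup moved with the day, and its part in the results was not tested beyond the fits described below. Results below are therefore given with all libraries and, where it matters, without these 6. Leaving them out also leaves fewer day 3 libraries and a weaker test, so a lost call does not by itself show dependence on them. Gland counts were not confined to these 6. Counts of 4 salivary gland genes (of 6 listed) were highest in IR day 7 replicate 5, at 2.41%. In IR day 3 replicates 3 and 4 they took 0.975% and 0.77%.

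Together the members took 0.842% ± 0.238 of all counts in IR day 3 (SD, n = 6) and 0.722% ± 0.0509 in IR day 7. For DR these shares were 1.015% ± 0.143 at day 3 and 0.759% ± 0.0509 at day 7, and the NT library had 0.658%. A few genes held most of it. Hsp90ab1, the constitutive cytosolic HSP90, gave on average 17.6% of the member counts, Hspa5, the ER HSP70 known as BiP, 13.3%, and Hsp90aa1, the stress-inducible cytosolic HSP90, 11.3%. With Hsp90b1, the HSP90 of the ER, and Cct4, a subunit of the chaperonin ring, 5 genes made up 55.6% of the total.

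The question of how the periodontal tissue changes as the replanted tooth heals was addressed by comparing day 7 with day 3, pooled over IR and DR. Of the 69 members tested, 22 fell and 0 rose (edgeR quasi-likelihood test, adjusted p under 0.05, 24 libraries). Over all 11492 genes tested, 11.8% fell and 6.94% rose, so 31.9% of the members stood beside a background of 11.8%. The median log2 change was −0.33 for the members and −0.06 for all genes, and 58 of the 69 members had a negative value. Called genes came from every family except CCT. By location they were 5 of 8 tested in the mitochondrion, 6 of 11 in the ER and 9 of 41 in the cytosol, with 2 of 6 among those of no given location and 0 of 3 in the nucleus.

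**Figure D1:**
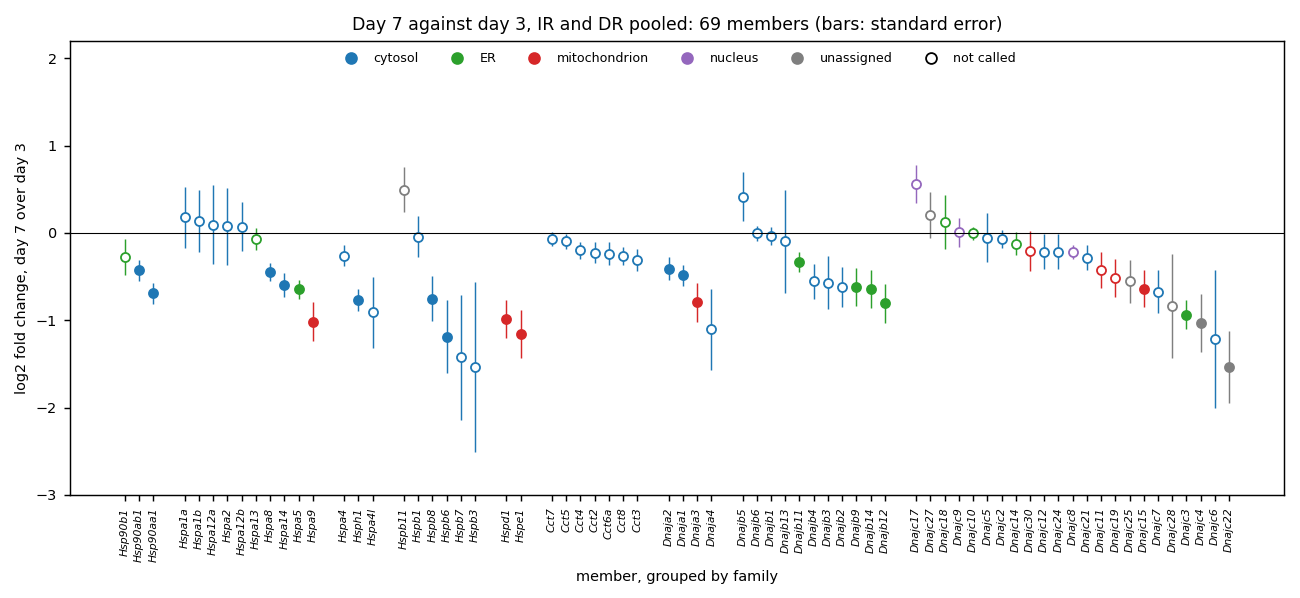
Log2 fold change of day 7 over day 3, pooled over IR and DR, for the 69 tested members grouped by family; the colour gives the compartment, bars are standard errors and open circles did not pass an adjusted p of 0.05. All 22 filled circles lie below 0, and the 7 CCT subunits sit just under the line, all open.

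Promoter sequences of 64 members were at hand in RefSeq (rat build GRCr8, 300 bases from 250 before to 50 after the annotated start). They were searched on both strands for the heat shock element, the site of heat shock factors, as its core of facing units (GAANNTTC or TTCNNGAA) and as a run of 3 units (GAANNTTCNNGAA or TTCNNGAANNTTC, which contain the core), and for the ER stress element, here CCAAT and CCACG with any 9 bases between them. The core was in 20 of the 64 promoters (31.2%) against 15.9% of all 33469 promoters of the table, and the 3-unit run in 6 (9.38%) against 0.798%. Those 6 were Hsph1, Hspa8, Hspd1, Hspe1, Dnaja1 and Cct4, where Hspd1 and Hspe1 share the same stretch. All but Cct4 were among the genes that fell, which makes 5 of the 18 called members searched (27.8%). Hspa1a, which is heat-inducible, held not even the core, and no promoter was at hand for Hsp90aa1 or Hspa1b. A link between the run and the decrease was not tested. The ER stress element was in 3 (4.69%) against 0.0657%, namely Hspa5, Dnajc3 and Hsp90b1, all of the ER. No ER member held the 3-unit run, and no cytosolic or mitochondrial member held the ER stress element in this window. A match is a description of letters, not a site shown to be bound. The 250 bases before the start are printed for a cytosolic, a mitochondrial and a pair of ER members that fell, with the matches in capitals.
Hsph1 promoter: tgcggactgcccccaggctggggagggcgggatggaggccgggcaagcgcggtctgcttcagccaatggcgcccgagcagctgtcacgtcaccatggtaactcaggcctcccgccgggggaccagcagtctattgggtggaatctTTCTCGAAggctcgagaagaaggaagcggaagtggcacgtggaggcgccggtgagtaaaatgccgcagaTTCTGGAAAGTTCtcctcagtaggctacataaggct
Hspd1 promoter: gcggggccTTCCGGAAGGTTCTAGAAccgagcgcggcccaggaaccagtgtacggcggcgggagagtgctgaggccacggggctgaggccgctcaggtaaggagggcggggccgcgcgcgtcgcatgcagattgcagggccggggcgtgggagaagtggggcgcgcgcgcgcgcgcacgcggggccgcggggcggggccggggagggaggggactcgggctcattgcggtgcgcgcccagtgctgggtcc
Hspa5 promoter: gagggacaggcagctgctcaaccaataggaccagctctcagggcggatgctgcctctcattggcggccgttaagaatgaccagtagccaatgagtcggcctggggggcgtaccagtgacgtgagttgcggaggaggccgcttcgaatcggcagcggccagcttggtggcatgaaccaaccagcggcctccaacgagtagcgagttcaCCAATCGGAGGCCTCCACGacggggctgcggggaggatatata
Dnajc3 promoter: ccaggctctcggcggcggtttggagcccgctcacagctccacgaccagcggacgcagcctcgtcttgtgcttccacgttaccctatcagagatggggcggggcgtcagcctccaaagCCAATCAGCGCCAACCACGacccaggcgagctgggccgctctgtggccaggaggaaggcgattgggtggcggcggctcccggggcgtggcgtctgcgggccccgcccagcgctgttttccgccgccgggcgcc
The Hsph1 stretch is chr12:10427118-10427367 on the plus strand and has a core 105 to 98 bases and a 3-unit run 36 to 24 bases before the start. The Hspd1 stretch is chr9:64084038-64084287 on the minus strand. Hspd1 and its partner Hspe1 lie head to head, their windows share 211 bases, and the run TTCCGGAAGGTTCTAGAA seen in Hspd1 is read as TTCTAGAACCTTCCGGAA from 65 to 48 bases before the start of Hspe1. Hspa5 (chr3:38452766-38453015, plus strand) has its element 43 to 25 bases and Dnajc3 (chr15:102432417-102432666, plus strand) 133 to 115 bases before the start.

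Among the cytosolic members the smallest p-value was that of Hsph1, the inducible HSP110 that acts as nucleotide exchange factor of HSP70. At day 3 its lowest, median and highest levels were 115, 140 and 172 CPM (the count scaled to library size) in IR and 111, 153 and 197 CPM in DR. At day 7 they were 60.0, 76.6 and 110.2 CPM in IR and 75.5, 94.6 and 111 CPM in DR. In IR no day 7 library reached the lowest day 3 library, and in DR the groups overlapped by a single library. The pooled log2 change was −0.77 (SE 0.123, adjusted p = 0.00171 in edgeR's test).

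Hsp90aa1 fell as well, and here the days did not overlap within IR or within DR. Its lowest, median and highest levels at day 3 were 799, 1039 and 1699 CPM in IR and 1020, 1114 and 1802 CPM in DR. At day 7 they were 596, 717 and 764 CPM in IR and 722, 786 and 805 CPM in DR. The pooled log2 change was −0.69 (SE 0.121, adjusted p = 0.00398), which is 0.618 of the day 3 level. Its constitutive relative Hsp90ab1 moved less, from a mean of 1564 ± 374 CPM (SD, n = 6) to 1177 ± 146 in IR and from 1802 ± 360 to 1322 ± 118 in DR, a log2 change of −0.43 (adjusted p = 0.0165), which was −0.27 and not called without the 6 gland-rich libraries.

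Among the HSP70 genes of the cytosol, 2 were called. Hspa8, the constitutive HSC70, had means of 102 ± 22.2 and 83.6 ± 11.03 CPM at days 3 and 7 in IR (SD, n = 6) and of 122 ± 23.8 and 79.4 ± 8.94 CPM in DR, and fell by 0.45 on the log2 scale (adjusted p = 0.00942). Hspa14, an HSP70 that works at the ribosome, fell by 0.60. Without the 6 gland-rich libraries the values were −0.30 for Hspa8 and −0.42 for Hspa14, neither called. The heat-inducible pair Hspa1a and Hspa1b did not pass the test, with log2 changes of 0.18 (SE 0.350) and 0.13 (SE 0.355). Hspa1b ranged from 8.25 to 85.9 CPM in IR day 3 and from 9.93 to 97.2 CPM in DR day 3, and from 17.4 to 53.8 CPM over the day 7 libraries. Its 4 lowest day 3 libraries were those rich in lipid gland counts (log2 CPM of 3.09 to 3.96, against 4.45 to 6.61 in the 8 others), and its log2 change was −0.30 without these 4 and −0.48 without the 6 gland-rich libraries, not called either time. Those of Hspa1a were −0.20 and −0.36. Whether the inducible pair differed from Hspa8 was not tested. Hspa1a and Hspa1b are near-identical neighbours, and Hspa8 has 3 entries in the files of which the largest, with 40.1% of its counts, was kept, so reads of close copies may have been split among them.

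**Figure D2:**
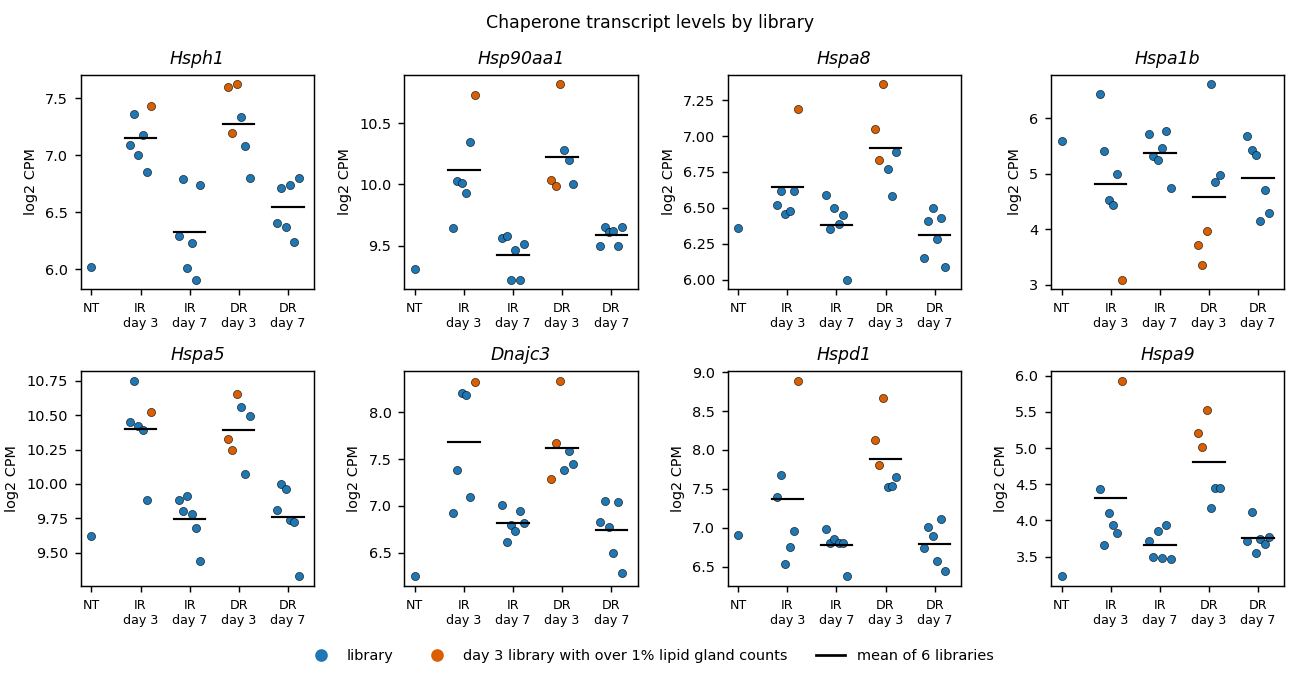
Level of 8 members in each library (log2 CPM); bars are the mean of 6 libraries and orange points are the 4 day 3 libraries in which lipid gland genes took over 1% of counts. For each of Hsph1, Hsp90aa1, Hspa5 and Dnajc3, 11 of the 12 day 3 points lie above every day 7 point. Nasal gland libraries (IR day 3 replicates 3 and 4) are not marked, and Dnajc3 stands at 8.21 and 8.19 there. Hspd1 and Hspa9 are highest in the orange points, and Hspa1b is lowest there.

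Of the cochaperones of HSP70 in the cytosol, 2 of the 3 type A J domain proteins tested fell. Dnaja1 had means of 163 ± 40.1 and 129 ± 20.1 CPM in IR at days 3 and 7 (SD, n = 6), and of 190 ± 44.9 and 123 ± 19.0 CPM in DR, a log2 change of −0.48 (adjusted p = 0.0117). Dnaja2 fell by 0.41 (adjusted p = 0.0385), and Dnaja4 was not called. Without the 6 gland-rich libraries neither was called, with −0.35 for Dnaja1 and −0.083 for Dnaja2. Dnajb1, the heat-inducible HSP40, was level, with group means between 34.1 and 39.7 CPM, and Dnajb6, which keeps aggregating proteins soluble, was not called.

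In the ER, the BiP gene Hspa5 was the member whose decrease held under most settings. Its lowest, median and highest levels were 942, 1387 and 1718 CPM in IR day 3 and 1073, 1359 and 1605 CPM in DR day 3. At day 7 they were 697, 885 and 965 CPM in IR and 645, 875.5 and 1025 CPM in DR. Every DR day 7 library was below every DR day 3 library, and in IR a single day 3 library lay below the highest at day 7. The log2 change was −0.65 (SE 0.109, adjusted p = 0.00276), to 0.639 of the day 3 level, and it passed the test under each setting tried, with adjusted p of 0.00786 at most when any 1 library was left out.

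Of the J domain proteins of the ER, 5 were called and others were not. Dnajc3, which restrains the stress kinase PERK, ranged from 121 to 322 CPM in IR day 3 and from 156 to 324 CPM in DR day 3, against 97.1 to 129 CPM in IR day 7 and 77.2 to 132.5 CPM in DR day 7, and fell by 0.94 (SE 0.164, adjusted p = 0.00403). Within IR its log2 change was −0.97 with all libraries and −0.31 without the 6 gland-rich libraries. Within DR the values were −0.90 and −0.68, and none of these was called. Dnajb9 and Dnajb11, which hand clients to BiP, fell by 0.62 and 0.33 (adjusted p = 0.0461 and 0.0481), and the ER membrane proteins Dnajb12 and Dnajb14 by 0.81 and 0.64. Without the 6 gland-rich libraries the log2 changes were −0.097 for Dnajb9, −0.33 for Dnajb11, −0.19 for Dnajb12 and −0.31 for Dnajb14, none of them called. Dnajc10, a J domain protein with a disulphide reductase, was level, with a median log2 CPM of 6.74 at day 3 and 6.76 at day 7. Hsp90b1, the ER HSP90 also called GRP94, had a wide spread, 667 ± 260 and 628 ± 288 CPM in IR and DR at day 3 (SD, n = 6) and 512 ± 140 and 558 ± 129 CPM at day 7, and was not called (log2 change −0.28, SE 0.206). It was lower in all 4 lipid gland libraries (log2 CPM of 8.45 to 8.71) than in the 8 other day 3 libraries (9.16 to 10.1), and so were Hspa1b and Dnajc25, 3 of 69 members (4.35%) beside 7.77% of all genes.

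With all 24 libraries the mitochondrial set had the largest median change, −0.72 over 8 members, and its members were often highest in the lipid gland libraries. The rank of the compartments without the gland-rich libraries is not given here. Hspd1, the HSP60 chaperonin, had its lowest, median and highest levels at 92.6, 146 and 474 CPM in IR day 3 and 183, 212 and 408 CPM in DR day 3. At day 7 they were 82.7, 112 and 127 CPM in IR and 86.7, 112.5 and 138 CPM in DR. The DR groups did not overlap and the IR groups did. The log2 change was −0.98 (SE 0.215, adjusted p = 0.00836).

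Hspe1, the HSP10 lid of that chamber, fell by 1.16 (SE 0.274, adjusted p = 0.00973), and Hspa9, the mitochondrial HSP70 that pulls in imported proteins, by 1.02 (SE 0.225, adjusted p = 0.00866). The J domain proteins Dnaja3 and Dnajc15 of the mitochondrion fell by 0.80 and 0.64, but without the 6 gland-rich libraries they stood at −0.35 and −0.17 and were not called. Hspa9 ranged over 5.01 to 5.93 log2 CPM in the 4 lipid gland libraries, against 3.66 to 4.45 in the 8 other day 3 libraries and 3.47 to 4.11 at day 7. Hspd1, Hspa9, Dnaja3, Dnajc15 and Dnajc19 each lay higher in all 4 of these libraries than in the 8 others. That held for 5 of 8 mitochondrial members and 11 of all 69 (15.9%), beside 11.9% of all genes. It held for 9 of the 22 called members (40.9%), which were picked by levels that include these same libraries.

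Small heat shock proteins were the most variable family, and several are known as muscle proteins. Hspb6, abundant in muscle, ranged from 8.26 to 204 CPM in DR day 3 (median 71.8), from 13.9 to 54.8 CPM in IR day 3 (median 23.1), from 5.64 to 61.3 CPM in IR day 7 (median 33.1) and from 6.97 to 20.7 CPM in DR day 7 (median 16.8). Its pooled log2 change was −1.19 (SE 0.415, adjusted p = 0.0488), with overlapping days. The 14 skeletal muscle genes, none at 0 over a group, took 0.0064% to 1.11% of counts in DR day 3, 0.00204% to 0.383% in IR day 3, 0.00453% to 0.283% in IR day 7 and 0.0047% to 0.0426% in DR day 7. The 2 libraries with the most muscle counts, DR day 3 replicates 1 and 5 (0.805% and 1.11%), had the 2 highest Hspb6 levels (log2 CPM of 7.60 and 7.67). With the muscle, nasal gland and lipid gland lists as covariates its log2 change was 0.20, so its decrease did not hold there.

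Hspb8, which works with BAG3 in clearing damaged proteins, fell by 0.75 (adjusted p = 0.0420), also not called with the covariates (0.032). Hspb3 and Hspb7, both muscle proteins, had group medians of 2.33 CPM or less and were not called. Hspb1, the widely expressed HSP27, was the highest of the family, with group means between 273 and 325 CPM, and was not called.

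**Figure D3:**
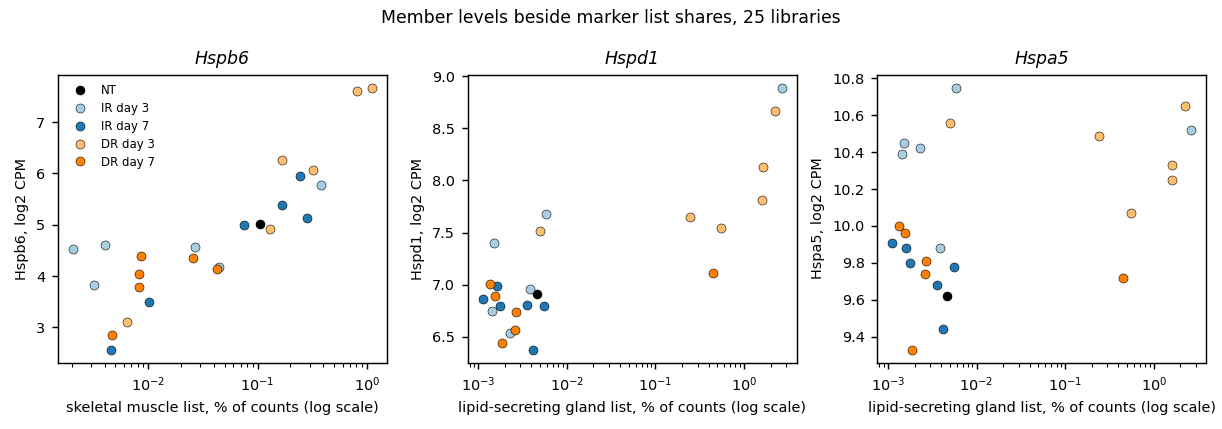
Level of 3 members (log2 CPM, vertical) against the share of counts taken by a marker list (percent, log scale) in the 25 libraries, coloured by group. Hspb6 is highest in the libraries with the most muscle counts and Hspd1 in those with over 1% lipid gland counts, while Hspa5 at day 3 is as high in libraries with few lipid gland counts.

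The cytosolic chaperonin CCT, which folds actin and tubulin, showed no called member. All 7 tested subunits had negative log2 changes, from −0.31 to −0.07. Cct4, the highest, was at 532 ± 104 and 568 ± 87.6 CPM in IR and DR at day 3 (SD, n = 6) and at 493 ± 54.3 and 465 ± 40.9 CPM at day 7. Cct2 had group means of 84.7 to 104 CPM and Cct5 of 202 to 229 CPM. Hspa4, the constitutive HSP110, behaved likewise, with means of 263 ± 81.2 and 275 ± 39.8 CPM at day 3 and 224 ± 38.4 and 225 ± 28.5 CPM at day 7, and was not called.

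In the DNAJC family, whose members have specialised tasks, 4 of 23 tested fell. Besides Dnajc3 and Dnajc15 these were Dnajc22 (log2 change −1.54, adjusted p = 0.0153) and Dnajc4 (−1.03, adjusted p = 0.0349). Dnajc22 ranged from 4.75 to 5.57 log2 CPM in the 4 lipid gland libraries, against 1.24 to 4.0 in the 8 others of day 3 and 1.5 to 3.06 at day 7. Without those 4 libraries its log2 change was −0.45 and that of Dnajc4 −0.27, neither called.

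The 6 gland-rich libraries were left out to see how the decrease changed. All 6 are day 3 libraries, so the fit has fewer day 3 libraries and a weaker test. The number of calls therefore cannot tell dependence on these libraries from the weaker test, and log2 changes are given beside the calls. In the fit without these libraries, 3 of 72 members tested were called, all lower, beside 0.101% of all genes lower (0.431% either way). They were Hspa5 (log2 change −0.60, adjusted p = 0.0362), Hsp90aa1 (−0.57, adjusted p = 0.0257) and Hspd1 (−0.65, adjusted p = 0.0242). Hsph1 kept a log2 change of −0.61 but missed the threshold (adjusted p = 0.0764), Dnajc3 had −0.49 (0.0700), Hspe1 −0.89 (0.133) and Hspa9 −0.46 (0.170). The median over members was −0.24, against −0.003 over all genes. Without only the 4 lipid gland libraries, a choice made after seeing the data, 5 members were called lower (Hsph1, Hspa5, Hsp90aa1, Dnajc3 and Hspd1), beside 0.319% of all genes lower (1.48% either way). The 3 marker lists as covariates left Hspa5 (−0.75) and brought in Hsp90b1 (−0.94) and Dnajc25 (−1.10), beside 0.2% of all genes lower (0.348% either way).

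**Figure D4:**
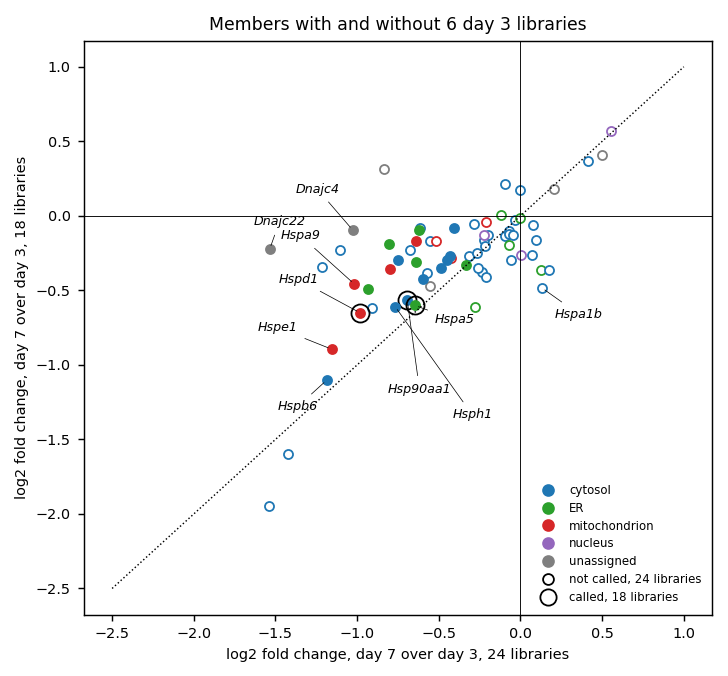
Log2 fold change of day 7 over day 3 in the fit of 24 libraries (horizontal) and in the fit of 18 without the 6 gland-rich day 3 libraries (vertical), with the line of equal change dotted. Most points stay below 0 and many lie nearer to it, such as Dnajc22 (from −1.54 to −0.22) and Dnajc4 (from −1.03 to −0.094), and the ringed Hspa5, Hsp90aa1 and Hspd1 are the 3 still called.

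Leaving out 1 library at a time gave 14 to 26 called members, and 14 of the 22 were called each time. The share of all genes called moved too. It was 11.8% without DR day 3 replicate 3 (14 members called) and 25.1% without IR day 3 replicate 2 (26 members called). The count was 14 without DR day 3 replicate 2, DR day 3 replicate 3, DR day 7 replicate 3 or IR day 7 replicate 1. Hspb6, Hspb8, Dnajb9, Dnajb11, Dnajb14, Dnajc4, Dnajc15 and Dnaja2 each lost their call without at least 12 of the 24 libraries, so these 8 stand close to the threshold. DESeq2 called 28 members lower beside 15.6% of all genes, and 1 higher beside 1247 of the 11492 genes. limma-voom with sample weights called 28 lower beside 23.3%, and 4 higher beside 2787 genes. With the replicate number as a block, 13 members were called beside 10.4% of all genes. Of these 12 were lower, all among the 22, beside 6.35% of all genes lower, and Dnajc17, a nuclear splicing-related J domain protein, was higher (log2 change 0.59).

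Within IR and within DR alone, no member passed the test. In IR, 0 members were called beside 0.139% of all genes (0.104% higher and 0.0348% lower), and 20 members had an unadjusted p under 0.05, as had 2340 of the 11492 genes. The smallest p-values were those of Hsph1 (log2 change −0.80, SE 0.175, adjusted p = 0.0590), Hspa5 (−0.67, adjusted p = 0.0651), Hsp90aa1 (−0.73, adjusted p = 0.0681) and Dnajc3 (−0.97, adjusted p = 0.0696). DESeq2 called 5 members in IR (these 4 and Hspa4l, all lower) beside 6.51% of all genes, and limma-voom with sample weights called 19 beside 38.1%. In DR, 0 members were called beside 0.0087% of all genes, while before adjustment 23 members and 2589 genes had a p under 0.05. The smallest p-values were those of Hspb6 (−2.61, SE 0.614, adjusted p = 0.0788), Hsph1 (−0.74, adjusted p = 0.0788), Hspa8 (−0.62, adjusted p = 0.0802) and Hspe1 (−1.61, adjusted p = 0.0802). DESeq2 called 14 members beside 9.26% of all genes and limma-voom 26 beside 28.6%.

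These counts turned on single libraries. Without IR day 3 replicate 6, a library of neither DR group, 17 members were called lower in DR, beside 12.2% of all genes called in either direction (8.81% lower). Leaving it out changes the shared spread and the genes that pass the filter (11627 in place of 11492). Without DR day 3 replicate 4 there were 10 called members, all lower, beside 3.18% of all genes (2.3% lower). In IR the count rose to 5 without IR day 3 replicate 1, beside 3.46% of all genes (1.75% lower), and to 4 without replicate 2, beside 1.43% (0.818% lower). The day 7 and day 3 levels did not overlap for Hsph1, Hsp90aa1 and Hspa14 in IR, beside 0.557% of all genes, and no member lay higher at day 7 (beside 0.583%). In DR they did not overlap for 8 members (beside 1.07% of all genes), namely Hsp90aa1, Hspa5, Hspa8, Hspa9, Hspd1, Hspe1, Dnaja1 and Dnajc3. All of these were lower at day 7, and no member was higher without overlap (beside 1.93% in DR). Over all 12 day 3 and 12 day 7 libraries no member was free of overlap, beside 0.0174% of all genes lower and 0.0783% higher.

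Whether the change over days differed between IR and DR was tested as an interaction. In that test 0 members were called beside 0.0% of all genes by edgeR, with 3 members and 346 genes at an unadjusted p under 0.05, and DESeq2 called 0 members. The smallest p-values were those of Hspb6 (difference of log2 changes −2.85, SE 0.835), Hspb3 (−5.46), Hspa4l (2.14) and Dnajb5 (−1.09), all with an adjusted p of 1.0. limma-voom called 4 beside 4.54% of all genes, Hspd1 (−1.03), Dnajc15 (−0.95) and Dnajb1 (−0.60) lower and Hspa4l (2.70) higher.

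The longer drying was compared with the shorter one at each day. At day 3, 0 members were called beside 0.0% of all genes (edgeR, DESeq2 the same), and an unadjusted p under 0.05 was reached by 4 members, and by 313 of all genes. The members with the smallest p were Hspb6 (log2 DR over IR 1.88, SE 0.596), Hspb3 (2.96, SE 1.35), Dnajb5 (0.85) and Dnajc25 (−0.88), all with an adjusted p of 0.983. The muscle list was higher in DR day 3 (median 0.244% of counts) than in IR day 3 (0.0154%), and with the 3 lists as covariates the Hspb6 value was −0.82. No member had all its DR libraries on the same side of all its IR libraries, beside 0.0174% of all genes lower in DR and 0.0% higher.

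A single library set this result too. Without IR day 3 replicate 6, the only IR library with over 1% lipid gland counts, 4 of 72 members were called, all higher in DR. That is 5.56%, near the 4.95% of all genes called. They were Dnajc22 (log2 difference 1.96), Dnajc15 (0.93), Hspa9 (0.88) and Hspd1 (0.82). All 4 are members high in the lipid gland libraries, so leaving out the only such IR library by itself moves their difference toward DR. The part of gland RNA in these calls was not tested. Without all 6 gland-rich libraries no member was called. limma-voom with sample weights called 13 members beside 10.3% of all genes.

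At day 7 the groups were more even, and 0 members were called beside 0.0% of all genes by edgeR, DESeq2 and limma-voom. No member had all DR libraries on one side of all IR libraries, beside 0.0957% of all genes lower and 0.0348% higher. Of the members only Hspa4l had an unadjusted p under 0.05, beside 206 of all genes, with a log2 difference of 1.29 (SE 0.581, adjusted p = 1.0). Hspa4l, an HSP110 known from testis, ranged from 2.37 to 17.03 CPM in IR and from 6.03 to 32.7 CPM in DR. These ranges overlapped. By replicate number DR stood against IR at 7.81 against 3.63, 8.7 against 4.87, 12.51 against 2.76, 32.7 against 6.06, 6.03 against 2.37 and 23.3 against 17.03 CPM. The share of all genes with DR higher in each such pair is not given here. Hspa4l was picked by its p-value from these same levels, so the pairs are no separate support. With the replicate number as a block its log2 difference was 1.28 (adjusted p = 0.9997), and 1.38 (adjusted p = 0.680) in the 12 day 7 libraries alone. After it came Dnajc2, a ribosome-bound J domain protein (0.26), Hspb3 (−2.5) and Hspb6 (−0.97). The abundant members were close to level, with Hspa5 at 866 ± 97.6 CPM in IR and 877 ± 136 in DR (SD, n = 6), and Hsp90aa1 at 691 ± 76.2 and 771 ± 38.3 CPM. The spread within groups was also smaller at day 7, with a median SD over members of 0.265 in IR and 0.296 in DR on the log2 scale, against 0.626 and 0.463 at day 3. All 11492 genes narrowed likewise between the days, from a median of 0.78 to 0.412 (IR) and of 0.587 to 0.415 (DR). The smaller spread was therefore not particular to the members.

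**Figure D5:**
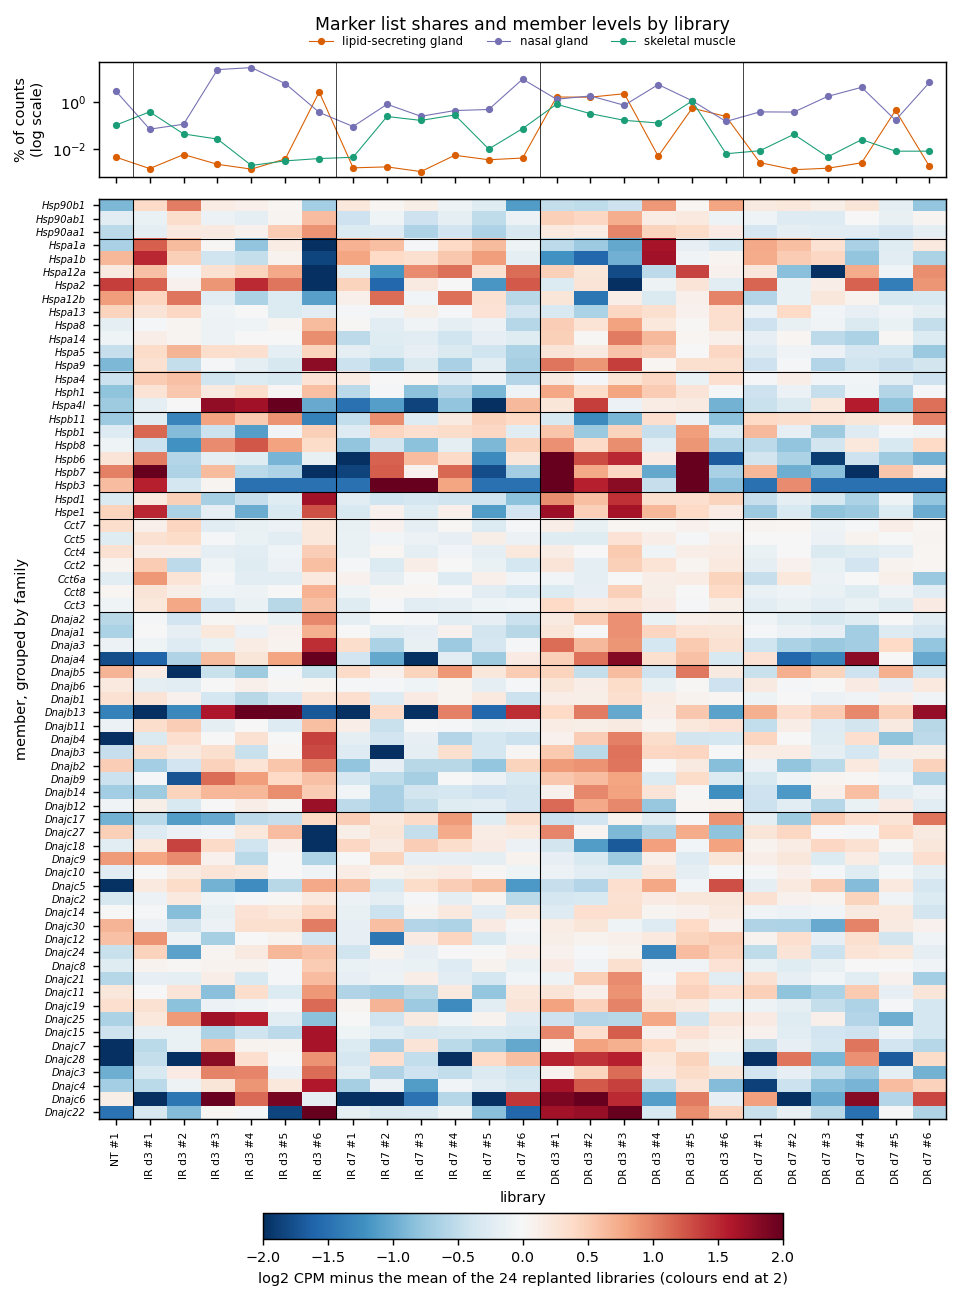
Upper panel: share of counts (percent, log scale) of 3 marker lists in each library. Lower panel: log2 CPM of the 69 tested members minus their mean over the 24 replanted libraries, with families divided by black lines and groups by vertical lines. Red columns stand out in IR day 3 replicate 6 and DR day 3 replicates 1 and 3, and the day 7 columns are paler.

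The NT library has no replicate, so its values carry no test. Against the mean of the 4 replanted groups, with 5 CPM added, 4 of 69 members were over 2-fold lower in NT (5.8%, beside 7.82% of all genes) and 0 were over 2-fold higher (beside 3.36%). The 4 were Dnajb4 (log2 ratio −1.85), Dnajc7 (−1.24), Dnajc22 (−1.11) and Dnajc3 (−1.05). Against the day 3 groups 11 members were over 2-fold lower in each (15.9%, beside 10.2% of all genes in each), and against IR day 7 and DR day 7 there were 2 (beside 4.8%) and 3 (beside 6.47%). No member was over 2-fold higher in NT than IR day 3 (beside 4.86% of all genes), DR day 3 (6.2%), IR day 7 (2.82%) or DR day 7 (3.56%).

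Below all 24 replanted libraries lay 6 members (8.7%, beside 6.06% of all genes), Dnajb4, Dnajc7, Dnajc3, Dnajc5, Dnaja2 and Hspa9. Above all 24 lay Hspa13 (1.45%, beside 9.1%), a microsomal HSP70, at 53.8 CPM. Of the 22 members that fell from day 3 to day 7, NT was below the day 7 mean in 13 and between the day 7 and day 3 means in 9. The 22 were picked for a day 3 level above that of day 7, which favours an NT value below day 3. The same split over all genes that fell is not given here, so no return toward NT is read from it. NT held 785 CPM of Hspa5, 635 of Hsp90aa1, 1224 of Hsp90ab1, 64.5 of Hsph1, 120 of Hspd1 and 47.9 of Hspa1b. Those of Hspa5, Hsp90ab1, Hspd1 and Hspa1b lay inside the range of IR day 7 and that of DR day 7. Those of Hsp90aa1 and Hsph1 lay inside the range of IR day 7 but below every DR day 7 library.

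Genes that work with the members were counted from lists of their partners in the pooled comparison of days, in which 11.8% of all genes fell and 6.94% rose (0.101% fell without the 6 gland-rich libraries). Of 27 tested cytosolic partners 11 fell and 0 rose, among them St13, which tethers HSP70 to HSP90 (log2 change −1.10, adjusted p = 0.00607), Fkbp4, the HSP90-bound immunophilin of hormone receptors (−1.61, adjusted p = 0.00667), Stip1, the HSP70 to HSP90 adaptor (−0.59, adjusted p = 0.00716), and Bag4, a nucleotide exchange factor (−1.73, adjusted p = 0.00742). Without the 6 gland-rich libraries 1 of the 27 was called. Of 24 tested ER folding and unfolded protein response genes 5 fell and 0 rose, and without the 6 libraries 0 were called. The 4 of smallest p were Sec63, the J domain protein of the translocation channel (−1.09), Canx, the lectin chaperone calnexin (−0.59), Creld2 (−0.54) and Hyou1, the HSP110 of the ER (−0.39). Among 10 mitochondrial partners 4 fell and 0 rose, the unfoldase Clpx (−1.21), the protease Lonp1 (−0.89), the nucleotide exchange factor Grpel1 (−0.81) and the import protein Timm44 (−0.72), and without the 6 libraries 0 were called. None of the 4 tested heat shock factor genes was called, and those of smallest p were Hsf2 (−0.34) and Hsbp1 (−0.14), a binding protein of the factors.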

How the data were processed

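RNA had been extracted with Trizol and 500 ng used for 3′ tag libraries (Lexogen QuantSeq), per the labels' protocols. The deposited values are raw counts per gene symbol, 17048 entries in each of 25 libraries, and 0 further per-sample columns exist. Bowtie2 and edgeR, and the builds rn6 and mm10, are named in the submitters' processing notes, without versions or roles, and the strand setting is not given in the sources used here. Of entries with the same symbol the one with the highest total was kept. Ribosomal RNA took 9.81% to 34.1% of counts in replanted libraries and 2.93% in NT.

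Counts were fitted with edgeR 4.0.16 in R 4.3.3 (filterByExpr, TMM scaling, robust quasi-likelihood fit, 4 group means, 24 replanted libraries, 20 residual degrees of freedom, Benjamini-Hochberg adjustment over 11492 genes, threshold 0.05). The fit was tested on simulated data. Levels are TMM-scaled CPM, and log2 CPM uses a prior count of 2. NT stayed out of the fit, and its ratios had 5 CPM added. Alternatives used DESeq2 1.42.0, limma 3.58.1 and the settings in the closing section. The planned look at protein ends was not run, as no protein sequences were used here.

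Replicate numbers were checked for pairing from deviations over genes. At day 7 same-numbered IR and DR libraries correlated at 0.214 to 0.72, over 0.1 in each pair, so the numbers were taken to pair them, from the data and not from the labels. The pairing was not clear in each case. Replicate 1 correlated better with another number (0.303 against 0.282). The margin was small for replicates 3 (0.241 against 0.17) and 4 (0.214 against 0.143) and wider for replicate 6 (0.72 against 0.45). At day 3 (−0.415 to 0.214) and across days (−0.493 to 0.337) the numbers were not taken to pair libraries.

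Members and lists were chosen with earlier results of these data known. Named genes are a set of 23 well-known members, the called members, up to 15 by size of change, the 4 of smallest p where fewer were called, and the highest and lowest of each family, plus for each partner list up to 4 called genes or the 2 of smallest p. The remaining called members, Dnajc10, Dnajc19, Dnajb13, Hspb11, Hspb3 and those NT ranked apart are named too, chosen after their values were seen.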

Additional observations from a re-analysis of the deposited data

Results flagged for a closer look

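Of 172 combinations of a named member and a group of 6 libraries, 20 had a library far from the 5 others (a gap above 0.625 of the group's range), where chance alone flags about 1 in 20, or 8.6. The combinations share libraries and are not independent, and no such count for all genes is at hand. The excess over 8.6 is therefore not assigned to the chaperones. IR day 3 replicate 6, the library richest in lipid gland counts, gave 8 of the 20. It was high for Dnaja2 (log2 CPM 8.74), Dnaja3 (4.97), Dnajb12 (6.6), Dnajc15 (6.93), Dnajc8 (7.89), Hspa8 (7.2) and Hspa9 (5.93) and low for Hspa12a (−1.03). DR day 3 replicate 3 was high for Dnajb1 (5.51), Dnajc3 (8.34) and Hsp90aa1 (10.8). DR day 3 replicate 4 was high for Hspa1a (5.92), against 3.25 to 4.1 in the 5 others.

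Low values stood out for Dnajb14 in IR day 3 replicate 1 (3.95), Dnajb5 in IR day 3 replicate 2 (−0.315), Dnajb3 in IR day 7 replicate 2 (−0.857), and Hsp90b1 (8.01) and Hspd1 (6.38) in IR day 7 replicate 6. High values stood out for Cct5 in IR day 7 replicate 5 (7.85), Dnaja3 in DR day 7 replicate 5 (3.89), and Hspb3 in DR day 7 replicate 2 (0.636), the only library of that group with counts of it.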

How the results depend on the processing

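Called members in the pooled comparison of days numbered 22, and 21 to 23 with RLE scaling, summed repeated entries or ribosomal RNA removed. They numbered 16 without a filter (12.8% of all genes called), 29 with DESeq2, 32 with limma-voom and 13 with the replicate block. Without the 6 gland-rich libraries there were 3, without the 4 lipid gland libraries 5, and with tissue covariates 3. When 1 library was left out there were 14 to 26, beside 11.8% to 25.1% of all genes. Main counts of 0 became 13 with limma-voom at day 3 (DR against IR), 19 with limma-voom, 5 with DESeq2 and 2 without the 4 libraries (Hspa5 and Hsp90aa1, beside 0.681% of all genes) for days in IR, 26 with limma-voom, 14 with DESeq2 and 2 with only the groups compared (Hspd1 and Hspe1, beside 0.398%) for days in DR, and 4 with limma-voom for the interaction. Leaving out 1 library gave 0 to 4, 0 to 5, 0 to 17 and 0 to 0 there, and 0 to 0 for DR against IR at day 7, where the replicate block, also within day 7 alone, left 0. The block changed no other count. Covariates turned the sign of Dnajb12 (0.065), Dnajc15 (0.039), Dnajc22 (0.032), Dnajc4 (0.34), Hspb6 (0.20) and Hspb8 (0.032) over days, of Hspb6 (−0.82) and Dnajc25 (0.18) at day 3, of Hspb3 (0.36) and Hspb6 (0.14) at day 7, of Hspb6 within DR (0.68), and of Hspb6 (0.97) and Hspb3 (0.024) in the interaction. Hspa1a and Hspa1b turned to −0.36 and −0.48 without 6 libraries, −0.20 and −0.30 without 4, and −0.63 and −0.78 with covariates. The cause was not tested. Members over 2-fold lower in NT numbered 10 with 1 CPM added in place of 5. The share of all genes with 1 CPM added is not given here, so this count is not read as a trait of the members. Without ribosomal RNA the members' share was 0.678% in NT (0.666% with entries summed), 0.889% and 0.988% at day 7 (IR and DR) and 1.045% and 1.28% at day 3. The smallest library held 5043739 counts, where 1 CPM is about 5 counts, so changes of members at a few CPM are uncertain.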

Other observations

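A few members were high in 3 IR day 3 libraries. Dnajb13, a J domain protein of cilia and sperm tails, stood at 4.23, 4.77 and 4.71 log2 CPM in IR day 3 replicates 3, 4 and 5, in which the nasal gland list took 23.7%, 28.8% and 6.04% of counts, against −1.79 to 1.33 in the 3 other IR day 3 libraries. Hspa4l was at 5.24, 5.14 and 5.6 log2 CPM in the same 3 libraries, against 2.46 to 3.45 in the 3 others. Hspb11, which encodes a subunit of intraflagellar transport, was at 4.86, 4.58 and 4.95, against 2.71 to 3.85. Counts of 3 ciliated cell genes (of 5 listed) took 0.00798%, 0.00878% and 0.0162% in these 3 libraries, against 0.00109% to 0.00121% in the 3 others. Other members also lay higher in the same 3 libraries than in the 3 others. These were Hspb8 (7.45, 7.74 and 7.31, against 5.29 to 6.87) and Dnajb14 (5.32, 5.32 and 5.59, against 3.95 to 5.17). Dnajc6 did so at a low level (2.3, 1.46 and 2.22, against −1.79 to 0.13). The share of all genes with this split is not given here. The part of nasal gland or ciliated cell RNA in these levels was not tested.

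Within families the levels spanned a wide range. Among the tested members of the HSP70 family Hspa5 had the highest mean, 866 to 1375 CPM over the replanted groups, and Hspa12a the lowest, 2.69 to 3.76 CPM. The tested HSP110 genes ran from Hspa4 (224 to 275 CPM) to Hspa4l (6.12 to 24.3 CPM), and the DNAJA genes from Dnaja2 (193 to 272 CPM) to Dnaja4 (2.86 to 8.48 CPM).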
